A study of Mus musculus with 10 samples.

Results

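The histone genes are the 56 rows of the deposited mouse gene tables, out of 25078, whose symbols follow the systematic names of the H1, H2A, H2B, H3 and H4 gene families (H1f, H2ac, H2bc, H3c or H4c followed by a number). They comprise 10 H1, 12 H2A, 14 H2B, 10 H3 and 10 H4 genes. On mm10, 46 of them lie on chromosome 13 between positions 21715711 and 23934913, 6 on chromosome 3 between 96219885 and 96270192, 2 on chromosome 15 and 2 on chromosome 6. The question of the study was how the transcriptome of CM mice with leukemia differs from that of littermate controls. The labels give 4 CM samples and 6 Ctrl samples of bone marrow mononuclear cells obtained by crushing long bones and pelvis and lysing red cells. CM is not spelled out, no promoter, Cre line or age is given, and the tissue label reads PBMC although the protocol describes marrow. Libraries were made from total RNA with a kit for mRNA.

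The 10 value columns of each table carry laboratory numbers, 6 of them preceded by COHP and 4 without it. None of these numbers was found in the labels (0 matches), so no column could be tied to a sample or to a genotype. The values are therefore described for 4 unprefixed columns and 6 COHP columns, which are not read here as CM and Ctrl. Because no column has a known group, no test was made, and differences are given as values, ranges and overlap of the 2 sets.

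Core histones H2A, H2B, H3 and H4 form the protein spool around which DNA is wound, and linker histone H1 binds where the DNA enters and leaves it. Most of these genes are replication-dependent: they are transcribed in S phase, when new DNA has to be packaged, and their mRNAs end in a conserved hairpin instead of a poly(A) tail. The hairpin is bound by SLBP and is needed for 3′-end cleavage, translation and the decay of the mRNA when replication ends. A library made by selecting polyadenylated RNA captures such mRNAs poorly unless they carry a poly(A) tail or are carried along, so their measured level also follows how a library was made. In bone marrow, dividing precursors are the main users of these genes.

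The hairpin letters are shown first because they mark the mRNAs that poly(A) selection is least suited to. How far these libraries were selected for poly(A) was not tested. The noncoding RNAs Rpph1 and Rmrp had 12213 to 27996 and 3370.0 to 6538 RPKM over all columns. The most abundant member, H4c4, had a median of 1937 RPKM. A search of GENCODE M21 transcripts, to which all 56 members could be matched, asked for a 6-base arm of the form GGNNNT, a 4-base loop that begins with TT, and the reverse complement of the arm. It was found in 32 of the 56 members, in 6 distinct versions of 16 bases. 1 gene is shown for each version, with 4 bases before and 5 after it on the sense strand; capitals mark the hairpin.
H4c4: caaaGGCCCTTTTCAGGGCCactac
H4c14: taacGGCCCTTTTTAGGGCCaacca
H4c2: aaaaGGTCCTTTTCAGGACCactca
H1f2: aaaaGGCTCTTTTCAGAGCCaccac
H2bc3: caaaGGCTCTTTTAAGAGCCaccca
H2ac20: aaaaGGCTCTTTTTAGAGCCaccaa
The version printed for H1f2 was the most frequent, with 17 members from the H1, H2A, H2B and H3 families. The version printed for H2bc3 was found in 6 members, that of H4c4 in 4, those of H4c14 and H4c2 in 2 each and that of H2ac20 in 1. Of 55450 GENCODE genes, 25 (0.0451%) held these letters in the last 100 bases of a transcript, and 15 of those 25 were members. Among the 24 members without a match, 12 have GENCODE models with no 3′ untranslated bases at all, so that no match says only that the letters are not in these models. H1f0, H1f10, H2bc21 and H2bc4 had no match in models with 1198, 369, 2192 and 742 untranslated bases. H1f8, H4c1, H3c8, H1f7, H1f1 and H3c13 had none in 1006, 154, 95, 84, 48 and 37, and H2ac12 and H2ac10 none in 2 and 1. The search asked for a strict form, so no match does not show that an mRNA lacks a hairpin. H1f0 and H1f10 are known as replication-independent linker histones with polyadenylated mRNAs.

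Members also share sequence with each other. For 19 of the 56, at least 50% of the 50-base windows of the transcripts occurred in another member, among them H2ac12 at 90.7%, H2bc15 at 86.4% and H4c12 at 71.1%. The windows come from GENCODE transcripts, some of them much longer than the deposited exons. H2ac6, at 11.6%, has a transcript of 2482 bases and 487 deposited exon bases. For such members the share can be too low for the counted exons, so members under 50% are not thereby free of shared sequence. How reads that fit several genes were counted is unknown here, so the values of single members with much shared sequence are uncertain.

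Start regions from RefSeq (GRCm38.p6), 250 bases before to 50 bases after the annotated start, were available for 51 of the 56 members. They were searched on both strands for CCAAT, the box bound by NF-Y; TATAAA; ATTTGCAT, the octamer bound by OCT1; and AAACACA, known as the H1 box. CCAAT stood in a region of 42 of 51 members, against 37.4% of all 32851 regions of that length, and TATAAA in 29 of 51, against 13.6%. The octamer stood in 7 of 12 H2B and 6 of 12 H2A members and in 0 of the 27 H1, H3 and H4 members, against 1.74% of all regions. The H1 box stood in 5 of 10 H1 members and in 9 of all 51, against 7.18%. CCAAT was found in all 12 H2A, all 12 H2B and all 8 H3 members, in 7 of 10 H1 members and in 3 of 9 H4 members. A member counts if any of its regions holds the letters, while the shares over all regions are per region. H2bc6 has more than a single region, and not all of them hold the octamer. Many H2A and H2B genes lie head to head and share such a region, so the counts for these classes are not independent. The regions of H2bc3, whose level differed most between the column sets among the most abundant members, and of H4c4, the most abundant, are printed 5′ to 3′ on the gene strand with matches in capitals.
H2bc3, chr13:23746484-23746783, plus strand: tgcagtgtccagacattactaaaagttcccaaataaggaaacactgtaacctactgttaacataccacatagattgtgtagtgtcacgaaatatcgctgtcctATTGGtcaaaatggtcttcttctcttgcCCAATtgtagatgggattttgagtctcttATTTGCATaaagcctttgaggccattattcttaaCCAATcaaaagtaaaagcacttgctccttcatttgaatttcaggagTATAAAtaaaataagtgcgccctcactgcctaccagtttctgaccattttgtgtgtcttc
H4c4, chr13:23581318-23581617, plus strand: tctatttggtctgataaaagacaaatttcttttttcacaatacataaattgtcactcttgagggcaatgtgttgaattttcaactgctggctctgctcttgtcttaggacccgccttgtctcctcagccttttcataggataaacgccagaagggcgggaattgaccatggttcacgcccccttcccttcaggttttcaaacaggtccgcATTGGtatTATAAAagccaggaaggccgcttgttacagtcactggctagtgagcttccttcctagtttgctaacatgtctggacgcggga
H2bc3 holds the octamer once, TATAAA once and the CCAAT box 3 times, once as its reverse complement. H4c4 holds TATAAA once and the CCAAT box once, as its reverse complement, and no octamer. In both regions no match shares letters with another. A match describes letters and does not show that a factor binds there.

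The unprefixed columns held 9334105 to 11976299 gene-assigned reads and the COHP columns 18832228 to 29440934, so the unprefixed values rest on fewer reads. The ribosomal RNA precursor Rn45s took 39.4%, 28%, 37.3% and 11% of the reads in unprefixed columns Sample_41317, Sample_41318, Sample_41319 and Sample_41322, and 6.16% to 11% in the COHP columns. The columns also stood apart in some blood cell markers in a way that crosses the headings. The summed RPKM of 10 neutrophil markers was 34223, 32190.4, 35738 and 4835 in the unprefixed columns; it was between 63939.6 and 86929 in Sample_COHP_45942, 45949 and 45956 and between 3346 and 4059 in Sample_COHP_45946, 45953 and 45960. The 9 B-lineage markers summed to 242, 284, 289 and 19.7 in the unprefixed columns, to 193 to 229 in the first 3 of those COHP columns and to 19.5 to 39.6 in the other 3. The 9 progenitor markers had sums of 910.3 to 2342 in the unprefixed columns, against 1237 to 3784 in the COHP columns. The 7 monocyte markers summed to 142, 179, 184 and 686 in the unprefixed columns, against 395 to 1023 in the COHP columns. Of the 11 erythroid markers, 2 had no read in any column and 4 had a median under 0.1 RPKM, while the sum was 144 to 646 in the unprefixed columns and 223 to 504 in the COHP columns. The T-lineage markers, 6 of 7 of which were found, summed to 10.6 to 25.9 in the unprefixed columns and to 5.82 to 28.9 in the COHP columns. The part of depth, Rn45s and cell makeup in the histone values was not tested, and in such bulk samples fewer cells of a type and less RNA per cell cannot be told apart.

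Histone mRNA was abundant in every column. H4c4, H4c6 and H1f2 ranked 13th, 18th and 20th of all genes by median RPKM (reads per kilobase of exon and per effective library size), 27 members were among the top 100, and 46 had a median of at least 100 RPKM. The summed RPKM of the 56 members was 12153, 14048, 13071 and 13145 in the unprefixed columns, against a lowest value of 22681, a median of 29726 and a highest value of 32347 in the COHP columns. The sets did not overlap, and the log2 ratio of their medians, unprefixed over COHP, was -1.18. Histone genes took 0.563%, 0.776%, 0.607% and 0.931% of the reads in the unprefixed columns and 1.24% to 1.75% in the COHP columns. Sample_41322, whose Rn45s share and neutrophil markers resemble those of 3 COHP columns, had a histone sum within the range of the other unprefixed columns.

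**Figure D1:**
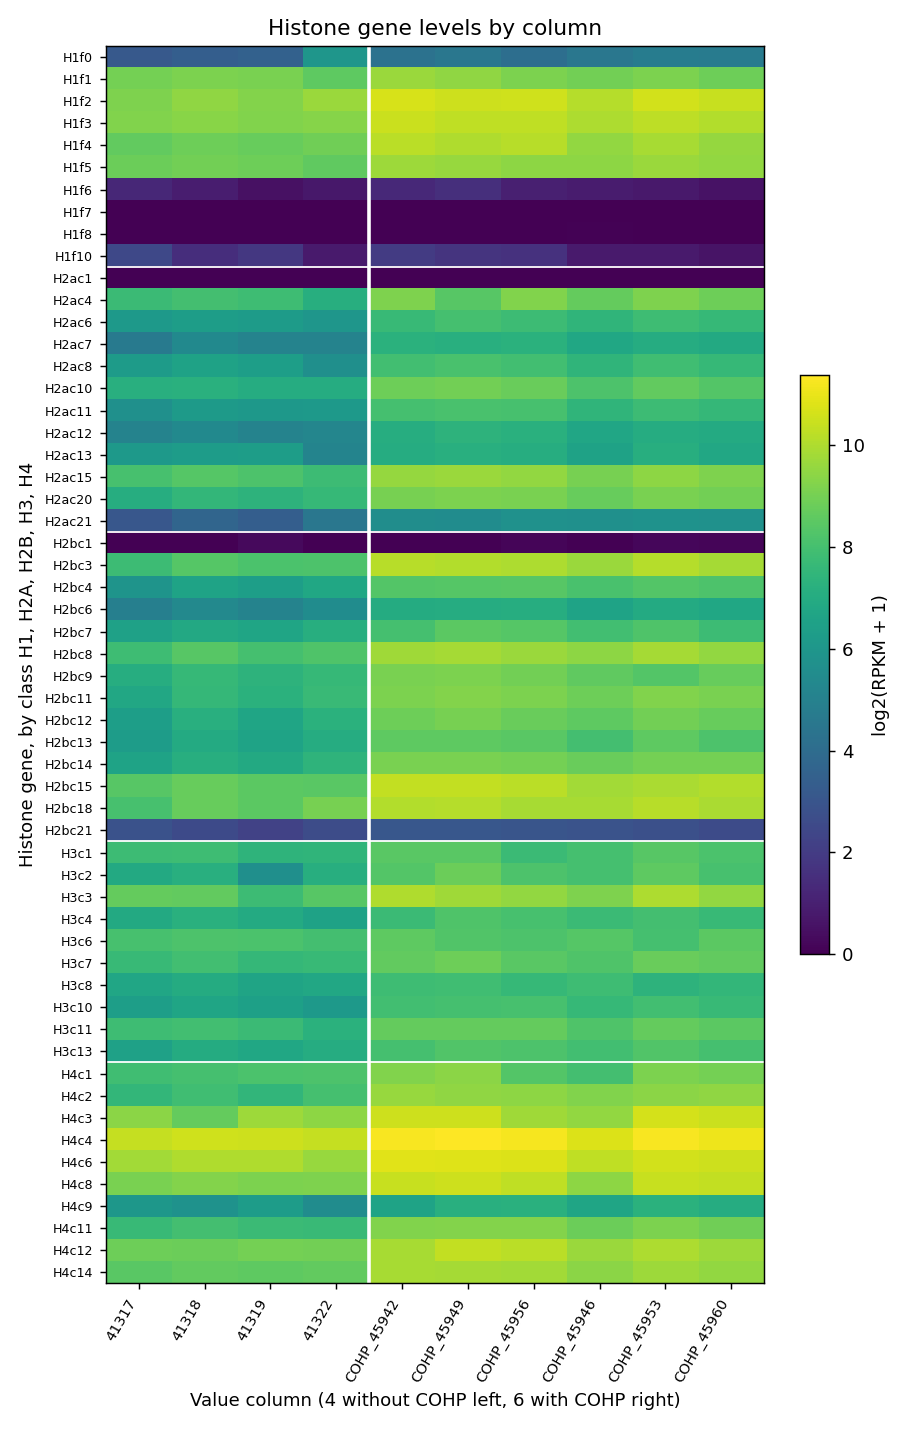
Level of each of the 56 histone genes (rows, by class) in each of the 10 value columns, as log2(RPKM + 1), with the 4 unprefixed columns left of the white line and the 6 COHP columns right of it. Most rows are darker on the left; H1f7, H1f8, H2ac1 and H2bc1 are near 0 throughout.

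**Figure D2:**
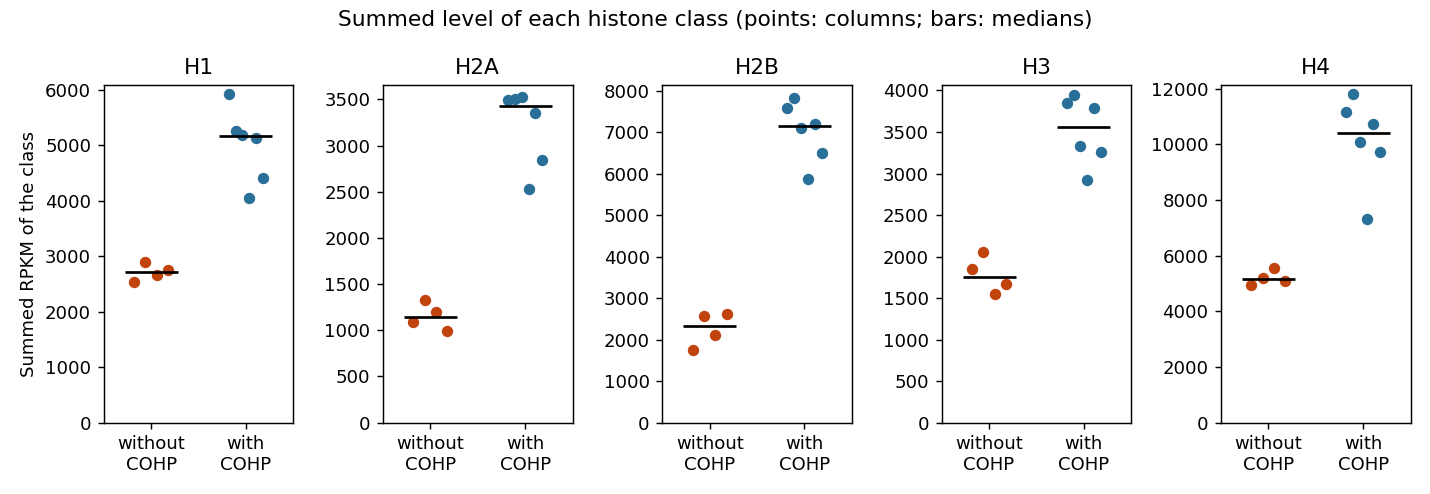
Summed RPKM of the members of each histone class in each column (points), with the 4 unprefixed columns left and the 6 COHP columns right; black bars are medians and each axis starts at 0. In none of the 5 classes do the points of the 2 sets overlap.

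Of the 56 members, 52 passed a filter of at least 10 reads in at least 4 columns, and 43 of these (82.7%) had every unprefixed RPKM below every COHP RPKM, while 0 showed the opposite order and 9 overlapped. Over all 13155 genes that passed, 25.7% lay wholly below and 0.38% wholly above, so the deposited scale places many genes lower in the unprefixed columns. The median log2 ratio was -1.24 over the histone genes and -0.46 over all genes. The deposited RPKM values divide each column by an effective library size, which came to 0.863 to 1.30 times the column total in the unprefixed columns and 0.923 to 1.02 times in the COHP columns. After scaling the reads by median-of-ratios size factors instead, which bring the median of all genes to -0.02, 31 of the 52 histone genes (59.6%) lay wholly below and 0 wholly above, against 5.7% and 4.5% of all genes. The median over the histone genes was then -0.78. Without Sample_41322, 44 members lay wholly below in RPKM, but so did 42.1% of all genes, and 3.56% lay wholly above. The ratio was negative for 51 of 52 members on the RPKM scale and for 47 of 52 with size factors.

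**Figure D3:**
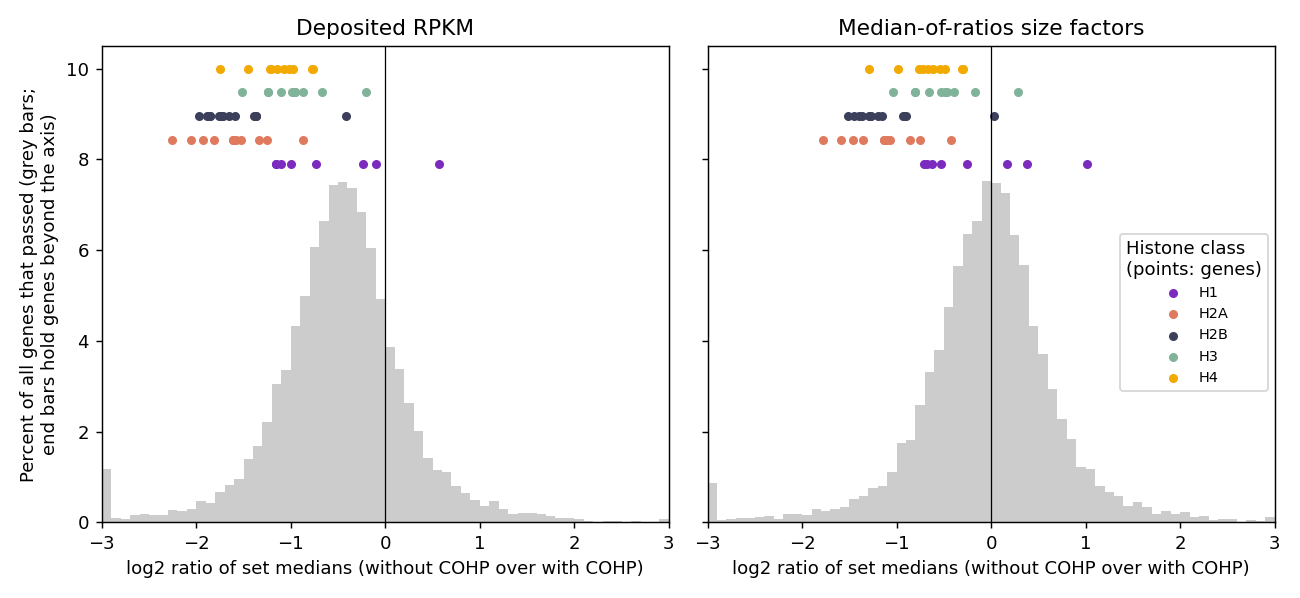
Distribution of the log2 ratio of set medians (unprefixed over COHP) over all 13155 genes that passed (grey bars, percent of genes) with the 52 histone genes as points, 1 row for each class, on the deposited RPKM scale (left) and with median-of-ratios size factors (right). H2A and H2B points lie furthest to the left on both scales.

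H4 genes gave the highest levels. H4c4, on chromosome 13 from 23581568 to 23581969, had 1316, 1503, 1462 and 1334 RPKM in the unprefixed columns, against 1729.9, 2409 and 2658 (lowest, median, highest) in the COHP columns. H4c6 had 891, 1028, 1034 and 784 RPKM in the unprefixed columns, against 1263, 1638 and 1877 in the COHP columns. In both genes all unprefixed values lay below all COHP values, with log2 ratios of -0.78 and -0.77, but with size factors the sets overlapped and the ratios were -0.31 and -0.30. H4c8 had 550.0, 617, 567 and 583 RPKM in the unprefixed columns, against 705, 1330.2 and 1469 in the COHP columns. The low COHP value of 705 belongs to Sample_COHP_45946 and stands close to the unprefixed values, while the other COHP columns are far above. H4c12 had 461, 458, 505 and 499.7 RPKM in the unprefixed columns, against 801, 975 and 1305 in the COHP columns, and stayed without overlap under size factors at a log2 ratio of -0.54.

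H4c3 was the most uneven of the abundant H4 genes, with 674, 412, 847 and 704 RPKM in the unprefixed columns, against 741, 1444 and 1621 in the COHP columns. Its sets overlapped, as did those of H4c1. H4c2 had 187, 234, 178 and 255 RPKM in the unprefixed columns, against 604, 709.6 and 785 in the COHP columns. It was the H4 gene with the lowest log2 ratio, -1.75 in RPKM and -1.29 with size factors, and its sets overlapped on neither scale. Of the 10 H4 genes, all passed, and 8 lay wholly below in RPKM and 4 with size factors. The shares over all genes were 25.7% and 5.7%. The class medians were -1.11 and -0.64.

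H2B genes stood lower in the unprefixed columns on both scales. H2bc3, on chromosome 13 from 23746734 to 23747223, had 224, 335, 281 and 297 RPKM in the unprefixed columns, against 805, 1047 and 1151 in the COHP columns. H2bc15 had 339.9, 424, 359 and 349 RPKM in the unprefixed columns, against 882, 1112 and 1293 in the COHP columns. H2bc18 had 263, 421, 363 and 519.8 RPKM in the unprefixed columns, against 942, 1024 and 1142 in the COHP columns. These 3 most abundant H2B genes did not overlap on either scale, with log2 ratios of -1.85, -1.65 and -1.39 in RPKM and -1.40, -1.20 and -0.93 with size factors.

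H2bc14 had 95.3, 139.8, 121 and 168 RPKM in the unprefixed columns, against 442, 511 and 546 in the COHP columns, and H2bc12 had 82.5, 142, 101 and 154 RPKM in the unprefixed columns, against 375, 451 and 519.5 in the COHP columns. H2bc4, whose exons are longer, had 57.4, 97, 82.4 and 108 RPKM in the unprefixed columns, against 276, 323 and 343 in the COHP columns. H2bc6 had 29, 40.1, 33.4 and 44.7 RPKM in the unprefixed columns, against 96.4, 125 and 133 in the COHP columns. In all 4 the highest unprefixed value was well under the lowest COHP value, and the log2 ratios were -1.97, -1.89, -1.85 and -1.76 in RPKM. H2bc21 was the exception among the 13 H2B genes that passed: it had 6.25, 4.81, 3.81 and 5.16 RPKM in the unprefixed columns, against 5.11, 6.72 and 7.51 in the COHP columns. It is the longest H2B gene, with 2667 exon bases, and its sets overlapped on both scales. The other 12 lay wholly below in RPKM and with size factors, against 25.7% and 5.7% of all genes. The class medians were -1.72 and -1.27. H2bc1, known from testis, had 0 to 2 reads in a column and did not pass.

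H2A genes followed H2B in direction and size. H2ac21, on chromosome 3 from 96219885 to 96220353, had the lowest log2 ratio of all members, -2.26 in RPKM and -1.78 with size factors. It had 7.55, 12.0, 9.65 and 22.0 RPKM in the unprefixed columns, from 31, 69, 45 and 125 reads, against 45.0, 52.4 and 54.9 RPKM in the COHP columns. H2ac7 had 25.0, 41.4, 32.9 and 33.3 RPKM in the unprefixed columns, against 108, 138 and 154 in the COHP columns, and H2ac12 had 32.8, 40.7, 33.1 and 36.3 RPKM in the unprefixed columns, against 104, 132 and 163 in the COHP columns. H2ac7 and H2ac12 share much sequence: 87.4% of the 50-base windows of the H2ac12 transcript also occur in H2ac7, so reads may have been divided between them and their values are uncertain one by one. H2ac11 had 51.3, 73.0, 66.1 and 69.5 RPKM in the unprefixed columns, against 172, 238 and 274 in the COHP columns. The log2 ratios of these 3 genes were -2.06, -1.93 and -1.81 in RPKM, without overlap on either scale. All 11 H2A genes that passed lay wholly below in RPKM and 10 of them with size factors, against 25.7% and 5.7% of all genes. The class medians were -1.61 and -1.13. H2ac1 had no read in any column, and 3 reads would correspond to 0.214 to 0.719 RPKM there, counting error only.

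H3 genes stood nearer to the median of all genes than H2A and H2B did. Their median levels over the 10 columns were between 171 and 658 RPKM, and their log2 ratios between -1.52 (H3c10) and -0.20 (H3c6) in RPKM. H3c3, the most abundant, had 415, 399, 219 and 345 RPKM in the unprefixed columns, against 579.6, 795 and 1039 in the COHP columns. H3c6 had 270.4, 297, 288 and 248 RPKM in the unprefixed columns, against 257, 321 and 372 in the COHP columns. H3c3 did not overlap in RPKM, at a log2 ratio of -1.10, but did with size factors, at -0.66, and H3c6 overlapped on both scales. Of the 10 H3 genes, all passed, and 8 lay wholly below in RPKM and 3 with size factors, against 25.7% and 5.7% of all genes. The class medians were -0.97 and -0.51. H3 genes resemble each other closely: a median of 51.8% of a gene's 50-base windows occurred in another member, up to 93.9% for H3c10. H3c3, H3c6 and H3c10 are named as the most abundant gene and those with the highest and lowest ratio, a choice made after their values were seen.

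Linker histone genes split by level. H1f2, on chromosome 13 from 23738807 to 23739531, had 578, 708, 606 and 802 RPKM in the unprefixed columns, against 1111, 1472 and 1628 in the COHP columns. H1f3 had 594, 657, 604 and 639 RPKM in the unprefixed columns, against 999, 1242 and 1424 in the COHP columns, and H1f4 had 396, 462, 424 and 485 RPKM in the unprefixed columns, against 734, 988 and 1187 in the COHP columns. H1f5 had 451, 501, 467 and 389 RPKM in the unprefixed columns, against 685, 763 and 844 in the COHP columns. In these 4 genes no unprefixed value reached a COHP value, and the log2 ratios were -1.16, -1.0, -1.16 and -0.73 in RPKM. With size factors the sets of H1f3 and H1f4 still did not overlap, at -0.53 and -0.68, and those of H1f2 and H1f5 did, at -0.71 and -0.26. H1f1 had 507, 552, 539 and 378 RPKM in the unprefixed columns, against 472, 562 and 808 in the COHP columns; its sets overlapped, and its log2 ratio was -0.10 in RPKM and 0.38 with size factors.

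H1f0, the linker histone of slowly dividing and differentiating cells, on chromosome 15 from 79028212 to 79030500, had 8.09, 9.52, 10.6 and 61.2 RPKM in the unprefixed columns, against 16.4, 21.6 and 26.5 in the COHP columns. Its highest value stands in Sample_41322 and its 3 lowest in the other unprefixed columns. Kit, a receptor of progenitor and mast cells, also stood apart in that column. It had 16.2, 14.4, 12.7 and 255 RPKM in the unprefixed columns, against 27.8, 35.2 and 58.2 in the COHP columns. Kit was added after its values were seen. The sum of the 9 progenitor markers, Kit among them, was 1864 in Sample_41322, within the 1237 to 3784 of the COHP columns. The relation of H1f0 and Kit was not tested. H1f10, the other replication-independent linker histone, had 4.52, 1.77, 2.56 and 0.776 RPKM in the unprefixed columns, from 42, 23, 27 and 10 reads, against 0.521, 1.42 and 2.98 RPKM in the COHP columns. It was the 1 member of 52 with a positive log2 ratio in RPKM, 0.57, and its sets overlapped. That ratio was 0.07 to 1.36 when single COHP columns were left out, and -0.80 for Sample_41322 alone. The COHP values were 2.98, 2.30 and 2.06 RPKM in Sample_COHP_45942, 45949 and 45956, and 0.784, 0.768 and 0.521 in Sample_COHP_45946, 45953 and 45960. H1f6, known from testis, had 1.40, 0.889, 0.411 and 0.673 RPKM in the unprefixed columns, against 0.479, 0.939 and 1.93 in the COHP columns, from 3 to 36 reads in any column. H1f7, known from sperm, had no read in any column, where 3 reads would correspond to 0.0770 to 0.259 RPKM, and H1f8, the oocyte form, had 1 read in all. Of the 10 H1 genes, 8 passed, and 4 lay wholly below in RPKM and 2 with size factors, against 25.7% and 5.7% of all genes. The class medians were -0.87 and -0.39.

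**Figure D4:**
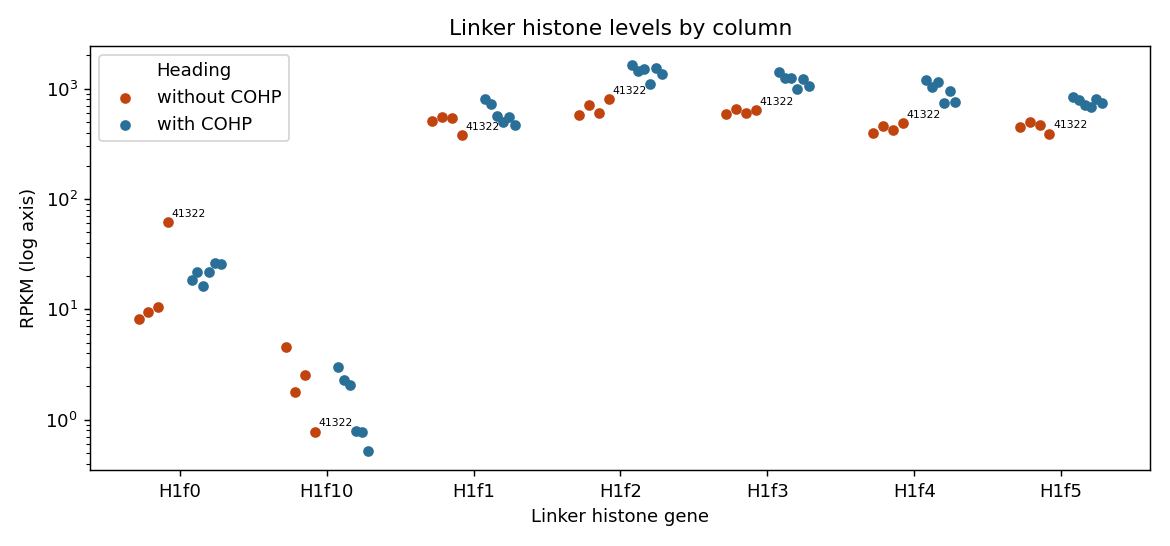
RPKM (log axis) of 7 linker histone genes in the 4 unprefixed columns (left in each pair) and the 6 COHP columns (right in each pair), with Sample_41322 labelled. H1f0 reaches 61.2 in Sample_41322 and lies between 8.09 and 10.6 in the other unprefixed columns.

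The balance between classes can be read within a column, where scaling by library size cancels. H2B over H4 summed RPKM was 0.353, 0.491, 0.381 and 0.515 in the unprefixed columns, against 0.664, 0.675 and 0.804 in the COHP columns. H2A over H4 was 0.221, 0.255, 0.216 and 0.194 in the unprefixed columns, against 0.293, 0.312 and 0.349 in the COHP columns. Neither ratio overlapped between the sets, so H2A and H2B stood lower relative to H4 in every unprefixed column. H3 over H4 was 0.374, 0.394, 0.280 and 0.327 in the unprefixed columns, against 0.330, 0.340 and 0.400 in the COHP columns. H1 over H4 was 0.515, 0.555, 0.478 and 0.540 in the unprefixed columns, against 0.446, 0.495 and 0.554 in the COHP columns. Both overlapped. H2B made up 14.3%, 18.2%, 16.2% and 20% of the histone RPKM in the unprefixed columns, against 23.7%, 24.3% and 25.9% in the COHP columns, and H4 made up 37.1% to 42.5% in the unprefixed columns, against 32.2% to 36.5% in the COHP columns.

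**Figure D5:**
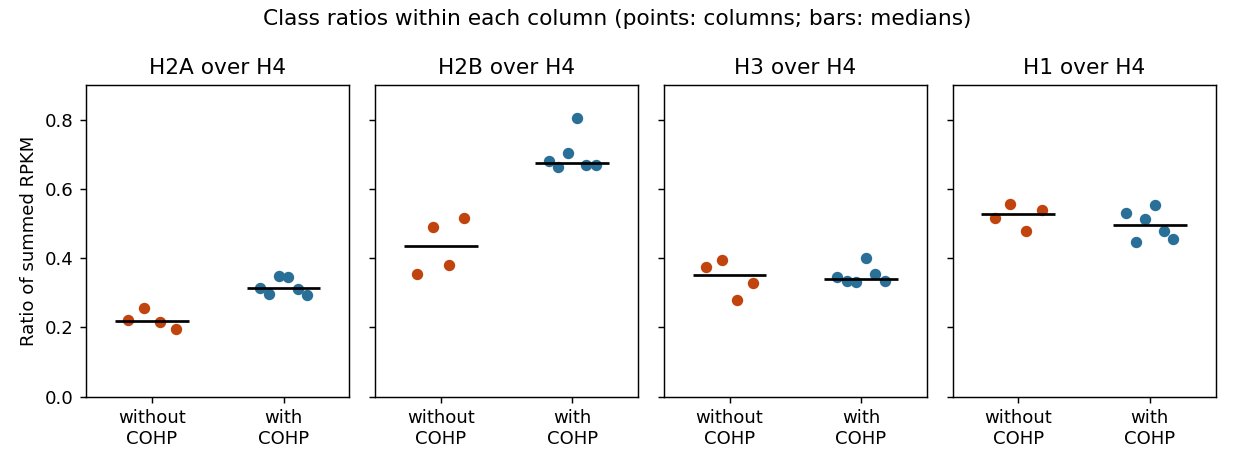
Ratio of the summed RPKM of H2A, H2B, H3 and H1 to that of H4 within each column (points), with unprefixed columns left and COHP columns right; bars are medians and the shared axis starts at 0. The sets are apart for H2A and H2B and overlap for H3 and H1.

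Most members are short, and length was set beside the other genes. Among members with at least 350 and under 600 exon bases, 36 of 39 (92.3%) lay wholly below in RPKM, with a median log2 ratio of -1.37. Of 200 other genes of that length, 42 (21%) lay wholly below, with a median of -0.53. With size factors the shares were 69.2% of these members and 6.5% of the other genes. Among the 13 members of 600 bases or more, 7 (53.8%) lay wholly below in RPKM, with a median of -0.99, and 30.8% with size factors. Other genes from 600 to 1000, from 1000 to 2000 and from 2000 to 4000 bases lay wholly below in 16.4%, 17.8% and 24.8% of cases in RPKM, and in 2.92%, 2.92% and 5.13% with size factors.

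In 12 of the 32 genes with a hairpin the GENCODE model ended at most 50 bases after the hairpin, and in the other 20 it ran on further. The deposited exon lengths, to which the RPKM values refer, differ from these models. H4c14 has 384 deposited exon bases against 1630 in GENCODE, H1f3 776 against 7425, and H3c6 911 against 836. The groups therefore do not separate genes counted with an extension from genes counted without it. All 12 of the first kind passed the filter, and in 11 every unprefixed value lay below every COHP value, with a median log2 ratio of -1.73 on the RPKM scale. In the 20 genes with longer models the count was 17 of 20 with a median of -1.16. Of the 24 genes with no match, 20 passed and 15 showed the same order, with a median of -1.17, and the share over all genes was 25.7%. With size factors the counts were 9 of 12, 11 of 20 and 11 of 20, with medians of -1.28, -0.70 and -0.72, against 5.7% of all genes. These 3 groups differ in their makeup by histone class, and the difference between them was not tested.

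A list of histone genes outside the 56, meant as replacement histones, was counted beside them. Replacement histones are used outside S phase, and their mRNAs are polyadenylated for the most part. H2aw and H2ax, also listed, are not clearly of that kind, so the list is mixed. Of 13 listed, 11 were found and passed, 7 (63.6%) lay wholly below in RPKM, against 25.7% of all genes, and 0 with size factors, with medians of -0.65 and -0.18. H2ax, the variant phosphorylated at DNA breaks, had 184, 189.9, 189.7 and 120.1 RPKM in the unprefixed columns, against 259.7, 326 and 369 in the COHP columns. H3f3b, a gene for H3.3, had 177, 161, 143 and 196 RPKM in the unprefixed columns, against 209, 334 and 413 in the COHP columns. The log2 ratios of both, -0.81 and -0.98, were between the median of all genes and that of the histone genes. H2az1, a gene for H2A.Z, had 18.9, 19.9, 21.9 and 42.6 RPKM in the unprefixed columns, against 45.0, 63.0 and 87.6 in the COHP columns. At a log2 ratio of -1.59, without overlap in RPKM but with overlap under size factors, it lay beyond the histone median; it was added after its values were seen. Macroh2a1 lay wholly below at -0.47, while H2aw, the most abundant of the list, overlapped at -0.43. The sum of the 56 histone genes over that of this mixed list was 11.9, 14.2, 14.1 and 13.9 in the unprefixed columns. It was 17.0, 17.9 and 18.9 (lowest, median, highest) in the COHP columns, without overlap.

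Factors that make and degrade histone mRNA had median log2 ratios of -0.57 in RPKM and -0.10 with size factors, against -0.46 and -0.02 over all genes. Of 18 that passed, 12 (66.7%) lay wholly below in RPKM, against 25.7% of all genes, and 2 (11.1%) with size factors, against 5.7%. Slbp, which encodes the hairpin-binding protein, had 63.6, 58.6, 61.7 and 30.6 RPKM in the unprefixed columns, against 52.1, 66.2 and 71.9 in the COHP columns. Its sets overlapped, with the lowest value in Sample_41322. Tut7, a uridylyltransferase that acts in histone mRNA decay, had 41.5, 43.5, 40.3 and 29.6 RPKM in the unprefixed columns, against 56.8, 62 and 70.3 in the COHP columns, without overlap at -0.60. Srrt, a partner of the cap-binding complex, and Upf1, a helicase of mRNA decay, overlapped at -0.07 and -0.06.

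Histone chaperones, which carry and deposit histones, comprised 20 genes that passed. Of these, 9 (45%) lay wholly below in RPKM, against 25.7% of all genes, and 0 wholly above. With size factors 1 lay below and 1 above, where 5.7% and 4.5% of all genes did. The medians were -0.34 and 0.11. Ssrp1, a subunit of FACT, had 69.4, 69.4, 75.3 and 54.0 RPKM in the unprefixed columns, against 79.7, 90 and 102 in the COHP columns, without overlap at -0.38. Its partner Supt16 overlapped at -0.31, as did Npm1 at -0.81 and Anp32e, the chaperone of H2A.Z, at -0.07. The poly(A) machinery, 10 genes, had 3 (30%) wholly below in RPKM, near the 25.7% of all genes, and 2 below and 2 above with size factors, with medians of -0.28 and 0.18. In it Papola, the poly(A) polymerase, and Pcf11 lay wholly below in RPKM at -1.05 and -0.70, while Pabpc1 and Pabpn1, which bind poly(A), overlapped at -0.06 and 0.54.

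Genes of DNA replication and S phase stood close to the median of all genes. Of 20 that passed, 6 (30%) lay wholly below in RPKM and 1 (5%) with size factors, near the 25.7% and 5.7% of all genes. The medians were -0.30 and 0.18. Rrm2, a subunit of the enzyme that makes deoxyribonucleotides, had 151, 139, 129.7 and 65.2 RPKM in the unprefixed columns, against 82.0, 106 and 168 in the COHP columns. Rrm1, Mcm7 and Mcm5 overlapped as well, at -0.03, 0.16 and -0.04. Histone over S-phase summed RPKM was 12.5, 15, 14.3 and 23.6 in the unprefixed columns, against 26.3, 28.3 and 33.7 in the COHP columns. The sets did not overlap, and Sample_41322 stood nearest to the COHP columns. Its S-phase sum was the lowest of all columns. That sum was 974, 934, 911 and 558 RPKM in the unprefixed columns, against 846 to 1232 in the COHP columns. Of 10 genes of mitosis, 6 (60%) lay wholly below in RPKM and 3 (30%) with size factors, against 25.7% and 5.7% of all genes. The medians were -0.49 and 0.00. Mki67, a proliferation marker, lay below at -1.03, Top2a at -0.65 and Ccnb2 at -0.35, while Aurkb overlapped at 0.02. Histone over mitosis summed RPKM was 24.9, 28.1, 27.3 and 41.9 in the unprefixed columns, against 36.0, 40.6 and 46.4 in the COHP columns, and overlapped through Sample_41322. The mitosis sum was 488, 500.1, 479 and 313 RPKM in the unprefixed columns, against 590.3 to 799 in the COHP columns.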

How the data were processed

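RNA sequencing reads of mouse bone marrow mononuclear cells were, per the submitters' processing notes, handled with bcl2fastq 2.18.0.12 and TopHat2 on mm10; the counting tool, its annotation and its treatment of reads that map to several places, not given in the sources used here, bear most on near-identical members. Of the 2 tables, each with 25078 genes, the authors deposited one as raw counts and the other as RPKM, other annotation columns aside. The deposited RPKM equals the deposited count per kilobase of exon over 1 constant per column, to within a relative spread of 5.4e-14. The 20 value columns of both tables could not be tied to samples, so the planned test of CM against Ctrl was not run.

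Genes with at least 10 reads in at least 4 columns were kept. Ratios are log2 of set medians of RPKM plus 0.1. A gene was called lower or higher where the 2 sets did not overlap. Median-of-ratios size factors were the other scale. The overlap calls and size factors were checked on simulated reads with known changes. These reads held no general shift between the sets and no difference in Rn45s or cell makeup. The check therefore cannot show which scale suits the deposited columns. Python 3.11.15, pandas 2.3.3, numpy 2.4.6 and matplotlib 3.10.9 were used. Named genes were the 10 most abundant members, the H1 genes with a median of at least 10 reads, and the 10 with the largest log2 ratio among those without overlap. Other lists name the 4 most abundant genes, to which exceptions are marked. H2bc21 and H4c1 are outside these rules and are named because their sets overlapped, a choice made after their values were seen. H1f7, H1f8, H2ac1 and H2bc1 are named because they did not pass the filter. The members and lists were chosen with earlier results of these data known. Promoter letters are from RefSeq, transcripts from GENCODE M21. No member overlaps another gene of the table in position.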

Additional observations from a re-analysis of the deposited data

Results flagged for a closer look

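Single columns far from the rest of their set were looked for with Dixon's criterion in 64 sets of values, and chance marks about 1 in 20 such sets; 4 were marked. H1f0 had 61.2 RPKM in Sample_41322, far above the other 3 unprefixed columns. Sample_COHP_45946 was far below the other COHP columns for H4c8, at 705 RPKM. For H2bc14 it was below them by less, at 442 RPKM against 508 to 546, and it only just met the criterion. The same column had the highest H2B over H4 ratio of the COHP columns, 0.804. The cause of these values was not tested.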

How the results depend on the processing

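No paired analysis was possible because no value column is tied to a sample or bears a replicate number. The log2 ratio of the summed histone RPKM was -1.18 as deposited, -0.71 with median-of-ratios size factors and -0.79 when scaled by the total without Rn45s, a choice made after seeing the data. The median log2 ratio over members was -1.24 as deposited and -0.78 with size factors. The number of members wholly lower was 43 as deposited (25.7% of all genes), 42 when scaled by the column total (13.3%), 35 with upper-quartile factors (5.94%), 35 without Rn45s (6.38%) and 31 with size factors (5.7%). When each column was left out in turn it was 43 to 45, while the share of all genes was 26.1% to 28.5%, and 42.1% without Sample_41322, and the summed log2 ratio was -1.20 to -1.16. Sample_41322 alone lay outside the COHP range in 47 members below and in 1 member above, H1f0, against 49% and 6.16% of all genes; this choice too was made after seeing the data. For the 25 named members, 325 further values were computed, of which 310 were negative; 290 moved by less than the spread within the sets and 35 by more, and 0 of those without overlap changed sign. The alternatives to the test of CM against Ctrl were not run. Columns with fewer reads limit H1f6 and H1f10 most.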

Other observations

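Over the 10 columns, the level of the histone genes and that of the neutrophil markers divide the columns in different ways. The histone sum was 12153 to 14048 RPKM in the 4 unprefixed columns and 22681 to 32347 in the 6 COHP columns. The neutrophil sum was 4835 in Sample_41322, and 4059, 3487 and 3346 in Sample_COHP_45946, 45953 and 45960, while the other 6 columns had 32190.4 to 86929. In Sample_41322 the histone sum was 13145, and in those 3 COHP columns it was 22681, 30197 and 26741. The B-lineage and T-lineage sums split the columns as the neutrophil sum did, and the progenitor and erythroid sums did not. Nor did the monocyte sum, which was 142, 179 and 184 in Sample_41317, 41318 and 41319 and 395 to 1023 in all other columns. The columns are tied to no sample, so these values say nothing of genotype.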
